A study of Mus musculus with 6 samples.

Results

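The genes described here are 10 genes of bone morphogenetic protein (BMP) signalling, taken by symbol from the 54446 genes listed in each library. They comprise the ligands Bmp4 and Bmp7, the receptors Bmpr1a, Bmpr1b and Bmpr2, and the targets Id1, Id2, Id3, Id4 and Smad6. Their levels were read in mouse glioma cells by single-cell RNA-seq, in 6 libraries that capture transcript 5' ends in droplets. Of these, 2 libraries were of GL261, an established mouse glioma line grown in differentiation medium that contained fetal calf serum. The other 4 were of GL261-GSCs, which the labels call glioblastoma stem cells and which were derived from that line and grown in defined stem cell medium. Both groups thus stem from 1 line, and they differ in medium and in derivation together, so that these cannot be told apart. The labels give no treatment, passage or clone, and nothing in them says that replicates came from separate cultures. The p-values below therefore measure only the spread between these libraries, which may be technical.

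BMP ligands bind pairs of type I receptors (Bmpr1a, Bmpr1b) and type II receptors (Bmpr2), which phosphorylate the transcription factors Smad1, Smad5 and Smad9. With Smad4 these bind DNA and raise the Id genes, whose proteins hold E proteins such as Tcf4 and Tcf12 away from DNA, and Smad6 and Smad7, which feed back as inhibitors. In neural stem and glioma cells BMP signalling is known for pushing cells toward an astrocyte-like fate.

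RefSeq promoter windows (GRCm38.p6, 250 bases before to 50 bases after the annotated start) were matched for 8 of the 10 genes. Id1 and Bmp7 had no window, so their motifs were not searched. The windows of 3 targets that fell in GL261-GSCs or lay at 0 there, and of Id4, which was nearly unseen in both groups, are printed because the targets are the members whose levels differed most. Capitals mark the letters GGCGCC, the palindrome GTCTAGAC and the pentamer GTCTG with its reverse complement, which reads CAGAC, searched on both strands. These motifs, chosen with the windows in view, are letter patterns known to be bound by Smad proteins. The windows are Id3 at chr4:136143572-136143871 (plus strand), Id2 at chr12:25096043-25096342 (minus strand), Smad6 at chr9:64022010-64022309 (minus strand) and Id4 at chr13:48260866-48261165 (plus strand).
Id3: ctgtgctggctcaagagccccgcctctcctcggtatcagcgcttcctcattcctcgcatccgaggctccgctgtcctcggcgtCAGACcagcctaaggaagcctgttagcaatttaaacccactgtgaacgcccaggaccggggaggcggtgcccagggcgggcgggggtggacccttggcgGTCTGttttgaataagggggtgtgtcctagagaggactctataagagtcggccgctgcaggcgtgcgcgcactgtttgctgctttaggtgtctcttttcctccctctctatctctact
Id2: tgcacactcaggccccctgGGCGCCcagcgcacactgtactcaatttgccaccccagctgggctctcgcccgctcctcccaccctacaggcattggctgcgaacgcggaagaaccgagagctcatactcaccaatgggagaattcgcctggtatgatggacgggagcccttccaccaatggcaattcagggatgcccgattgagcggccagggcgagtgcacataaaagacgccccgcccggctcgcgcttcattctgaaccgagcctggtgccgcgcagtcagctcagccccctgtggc
Smad6: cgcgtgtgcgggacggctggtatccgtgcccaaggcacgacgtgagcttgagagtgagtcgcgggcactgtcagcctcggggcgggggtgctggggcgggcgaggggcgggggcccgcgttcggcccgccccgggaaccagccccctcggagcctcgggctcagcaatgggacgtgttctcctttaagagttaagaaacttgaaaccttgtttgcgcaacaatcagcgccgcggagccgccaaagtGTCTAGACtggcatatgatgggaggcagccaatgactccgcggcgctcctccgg
Id4: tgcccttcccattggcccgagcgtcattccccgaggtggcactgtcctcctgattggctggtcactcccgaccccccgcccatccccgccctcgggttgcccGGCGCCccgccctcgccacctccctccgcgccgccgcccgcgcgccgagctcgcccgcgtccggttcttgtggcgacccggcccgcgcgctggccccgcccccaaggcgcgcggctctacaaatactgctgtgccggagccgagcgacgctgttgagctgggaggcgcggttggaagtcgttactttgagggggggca
Positions are those of a match's first base, with minus for bases before the annotated start. The Smad6 window held GTCTAGAC at -4, a match found in 70 of 32851 windows (0.213%). GGCGCC stood at -231 in the Id2 window and at -148 in the Id4 window, and 11.9% of all windows held it. The Id3 window held GTCTG at -167 and -68, as 49.6% of all windows did at least once. Among the receptors, GGCGCC stood at -198 for Bmpr1a and at -105 for Bmpr2. The windows of Id2, Id3, Bmpr1a and Bmpr2 lie inside the gene coordinates given below, so their positions refer to the RefSeq start alone. The E-box CANNTG, the pattern of the E proteins that Id proteins bind, was in 72.3% of windows. It was found in those of Id2 and Smad6 and not in those of Id3 and Id4. A match is a description of letters, not of binding.

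Called cells numbered 4808 and 5002 in the GL261 libraries and between 4264 and 7275 in the GL261-GSCs libraries. Summed UMIs (unique molecule counts) over the called cells ranged from 33320530 to 79472306 per library, and the shallowest was GL261-GSCs replicate 4. Its median cell held 6670 UMIs, against 10638 to 15478 in the other libraries. Libraries shared 32 to 59 called barcodes with each other, against 26.1 to 57.9 expected by chance. The 4 oligodendrocyte precursor markers summed to 909 to 1996 CPM, the UMI count scaled to a common library total, in GL261-GSCs and to 175 and 205 in GL261. They did not move alike. Olig1 and Olig2 lay at 384 to 892 CPM in GL261-GSCs and at 0.0166 to 1.30 CPM in GL261, and Pdgfra at 56.7 to 182 against 7.97 and 4.84 CPM. Cspg4, which made up most of the GL261 sums at 164 and 200.2 CPM, lay at 67.2 to 209 CPM in GL261-GSCs and was not called. Fibroblast or pericyte markers summed to 252 and 287 CPM in GL261 and to 11.0 to 26.8 in GL261-GSCs, nearly all of it Col1a1. The 5 microglia or macrophage markers summed to at most 23.0 CPM and the 4 endothelial markers to at most 1.63 CPM in any library. Of the 4 astrocyte markers, Aqp4 had 0 UMIs in every library. Both GL261 libraries held Gfap, with 83 and 82 UMIs, against 1, 0, 0 and 2 UMIs in those of GL261-GSCs. Aldh1l1 gave 480 and 392 UMIs against 1, 0, 1 and 0. Gja1 lay the other way, at 39.5 and 38.2 CPM in GL261 and 127, 93.6, 43.9 and 44.8 CPM in GL261-GSCs. The part of these marker differences in the results below was not tested. Over the tested genes, the median absolute difference of log2(CPM + 1) was 0.14 between GL261-GSCs replicates 1 and 2 and 0.16 between replicates 3 and 4, against 0.20 to 0.32 for the other pairs of that group. The labels do not say whether replicates 1 and 2, or 3 and 4, share a culture. If they do, an n of 4 overstates the number of independent samples.

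Id1, Id2, Id3 and Smad6 fell in GL261-GSCs, and the receptors Bmpr1a and Bmpr2 did not pass the test. Id1 and Id3 fell about 19- and 23-fold, and Id2 fell 1.62-fold. Bmp4, Bmp7, Id4 and Bmpr1b were nearly or wholly unseen in both cultures and were too low to test. Of the 6 genes that passed the filter on low counts, 4 were called by edgeR's quasi-likelihood test at an adjusted p under 0.05, all of them lower. Across all 18439 genes tested, 29.9% were called in either direction and 14.1% were lower. Called changes of at least 4 in size on the log2 scale, as for Id1 and Id3, were found for 5.82% of genes.

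Id1 (ENSMUSG00000042745.9, chromosome 2, 152736251 to 152737410, plus strand) encodes an inhibitor of E proteins that is among the most direct BMP targets. Its level was 314 and 301 CPM in GL261 replicates 1 and 2, and 12.5, 12.1, 23.6 and 17.1 CPM in GL261-GSCs replicates 1 to 4. Every GL261-GSCs library lay below both GL261 libraries, and the groups did not overlap. The means were 307 ± 9.04 CPM (SD, n = 2) and 16.3 ± 5.39 CPM (SD, n = 4). The log2 fold change was -4.24 (SE 0.28), an 18.8-fold fall, with an edgeR adjusted p of 0.000175.

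Id3 (ENSMUSG00000007872.3, chromosome 4, 136143497 to 136145755, plus strand) encodes another inhibitor of E proteins, and its printed window begins inside this annotated gene. It stood at 944 and 889 CPM in GL261 and at 56.0, 59.3, 22.1 and 22.3 CPM in GL261-GSCs replicates 1 to 4. The groups did not overlap, with means of 916 ± 38.6 CPM (SD, n = 2) and 39.9 ± 20.5 CPM (SD, n = 4). Its log2 fold change was -4.52 (SE 0.46), a 22.9-fold fall, with an edgeR adjusted p of 0.000806. Within GL261-GSCs, Id1 and Id3 took opposite orders. Id1 was higher in replicates 3 and 4, Id3 was higher in replicates 1 and 2, and no test was made between replicates. Olig2, a precursor and glioma stem cell factor, was also higher in replicates 3 and 4 (787 and 628 CPM) than in replicates 1 and 2 (401 and 413 CPM).

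Id2 (ENSMUSG00000020644.9, chromosome 12, 25093799 to 25097140, minus strand), a further gene of the family, changed less. It measured 130 and 142 CPM in GL261 and 81.8, 94.1, 87.8 and 72.4 CPM in GL261-GSCs. These groups did not overlap either, and the means were 136 ± 8.66 CPM (SD, n = 2) and 84.0 ± 9.22 CPM (SD, n = 4). Its log2 fold change was -0.69 (SE 0.14), a 1.62-fold fall, with an edgeR adjusted p of 0.0109. That call was lost without GL261 replicate 1 (adjusted p 0.0711) and without GL261 replicate 2 (adjusted p 0.122). Over all alternatives the adjusted p ranged from 0.00013 to 0.122, and every alternative kept the direction. Id4 (ENSMUSG00000021379.2, chromosome 13, 48261228 to 48266026, plus strand) gave 1 UMI, in GL261 replicate 2, and none in GL261-GSCs. Antisense genes overlap it.

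Smad6 (ENSMUSG00000036867.7, chromosome 9, 63953076 to 64022059, minus strand) encodes an inhibitory Smad that acts on BMP receptors. It gave 39 and 40 UMIs in GL261 and 0 UMIs in each GL261-GSCs library, and 0 also when the UMIs of all barcodes were summed. Over the group, 3 UMIs would make 0.0118 CPM in GL261-GSCs, against 0.620 ± 0.0601 CPM (SD, n = 2) in GL261. Its level was thus at least 52.5-fold lower, with an edgeR adjusted p of 0.00373. The values are few UMIs in every library, so the cells that carry Smad6 cannot be described further.

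**Figure D1:**
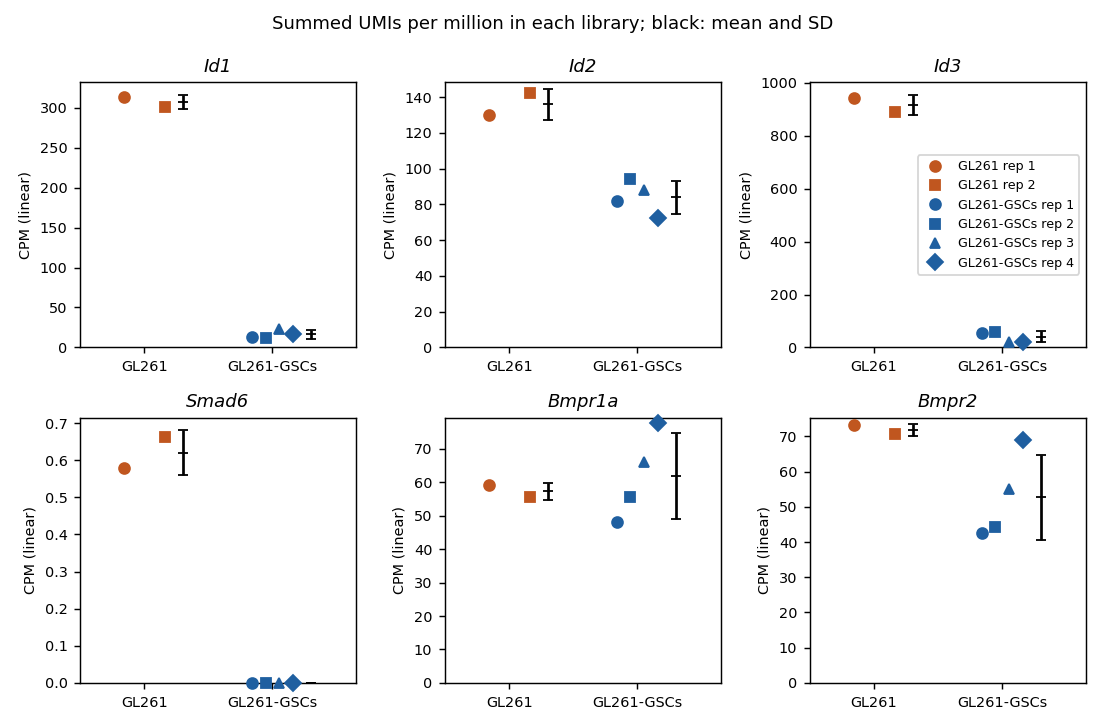
Level of the 6 tested genes in each library, in CPM on linear axes that start at 0; each point is 1 library and the black bars are group means with SD. Id1, Id2, Id3 and Smad6 are lower in all 4 GL261-GSCs libraries than in both GL261 libraries, while Bmpr1a overlaps and the highest GL261-GSCs point of Bmpr2 lies just under GL261.

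The 2 ligands were nearly unseen. Bmp4 (ENSMUSG00000021835.15, chromosome 14, 46383520 to 46390669, minus strand), which drives astrocyte-like differentiation of glioma stem cells when added to them, gave 1 UMI in the called cells, in GL261 replicate 1. Bmp7 (ENSMUSG00000008999.7, chromosome 2, 172868012 to 172940321, minus strand) gave 0 UMIs in the called cells of every library. Over all barcodes Bmp4 gave 2 UMIs and Bmp7 gave 1 UMI in GL261, and neither was seen in GL261-GSCs. Set beside the level that 3 UMIs per group would make (0.0235 CPM in GL261 and 0.0118 CPM in GL261-GSCs), no group showed more of either ligand.

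Bmpr1a and Bmpr2 were detected in every library. Bmpr1a (ENSMUSG00000021796.15, chromosome 14, 34410734 to 34503341, minus strand) is a type I receptor. Its level was 59.1 and 55.5 CPM in GL261 and 48.2, 55.5, 66.0 and 77.9 CPM in GL261-GSCs replicates 1 to 4. The GL261 values lay inside the GL261-GSCs range. Its log2 fold change was 0.11 (SE 0.20) with an edgeR adjusted p of 0.711, and it did not pass. Over all alternatives without a replicate block it ran from 0.005 to 0.26. The count may include an antisense gene that overlaps it.

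Bmpr2 (ENSMUSG00000067336.6, chromosome 1, 59763400 to 59879014, plus strand) is the type II receptor that binds BMP ligands most selectively. It stood at 73.2 and 70.7 CPM in GL261 and at 42.6, 44.3, 55.0 and 68.9 CPM in GL261-GSCs. The groups did not overlap, though GL261-GSCs replicate 4 lay just under GL261 replicate 2. The log2 fold change was -0.45 (SE 0.21) with an edgeR adjusted p of 0.148, and it did not pass. Without GL261-GSCs replicate 4, the shallowest library, the log2 fold change was -0.58 and the adjusted p was 0.0324. Over all alternatives without a replicate block the adjusted p ranged from 0.0324 to 0.4. Of the 6 tested members, 5 had groups that did not overlap, against 56.7% of all genes tested.

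Both receptors followed the same order in GL261-GSCs, lowest in replicate 1 and highest in replicate 4, the reverse of the order of median UMIs per cell (15375, 11890, 10638 and 6670). The part of depth in this order was not tested. Bmpr1b (ENSMUSG00000052430.15, chromosome 3, 141837136 to 142169425, minus strand), the other type I receptor, gave 15 UMIs in GL261 replicate 1 and 1 UMI in replicate 2. In GL261-GSCs replicates 1 to 4 it gave 1, 3, 3 and 1 UMIs. Most of its UMIs thus came from 1 library, and no fold change is given.

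Other genes of the pathway were read from lists of 65 genes, of which 42 passed the filter on low counts and 30 were called. Of those called, 12 rose and 18 fell, and the median log2 fold change of the tested genes was -0.15 against 0.04 over all genes. Among all genes 2920 (15.8%) rose and 2594 fell, or 3491 and 2034 when scaled by library size alone, which moved the median of all genes to 0.18. Of the 48 tested members and pathway genes, 44 kept their direction under that scaling, among them all 34 that were called. The 4 that turned were Acvr1, Twsg1, Smurf2 and Tcf3, none of them called. The number of called pathway genes was 18 without GL261 replicate 1 (3 higher and 15 lower) and 16 without GL261 replicate 2 (3 higher and 13 lower).

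Among the 13 other ligands, 2 passed the filter, and Bmp8a fell while Bmp15 rose. Bmp15, known as an oocyte growth factor, gave 0 UMIs in both GL261 libraries and 11, 17, 38 and 25 UMIs in GL261-GSCs replicates 1 to 4. That is at least 15.2-fold higher, with an edgeR adjusted p of 0.0116. The call was lost without GL261 replicate 1 (adjusted p 0.0632) and without GL261 replicate 2 (0.0619), over a range of 0.000173 to 0.0632 in all alternatives. The 11 untested ligands gave at most 46 UMIs each over all libraries, the highest being Bmp2. Of its 46 UMIs, 43 came from GL261-GSCs replicate 1.

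Of the 8 other receptors and co-receptors, 7 were tested, 3 rose, 3 fell and Acvr1 did not pass. Acvrl1, a type I receptor best known from blood vessels, fell by 4.17 (SE 0.42) on the log2 scale, from 7.14 and 4.64 CPM to between 0.167 and 0.438 CPM, with an edgeR adjusted p of 0.00078. Rgmb, a membrane co-receptor for BMP ligands, fell by 1.54 (SE 0.28), with an edgeR adjusted p of 0.00827. Acvr2a, a type II receptor shared with activins, rose by 0.83 (SE 0.19), with an edgeR adjusted p of 0.0169. The calls of both were lost without either GL261 library. Their adjusted p values over all alternatives ranged from 2.17e-05 to 0.0667 for Rgmb and from 0.000377 to 0.16 for Acvr2a.

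The 17 secreted and membrane antagonists moved both ways, with 10 tested, 2 higher, 4 lower and 4 not called. Chrdl1, a secreted protein that binds BMP ligands, rose by 7.02 (SE 0.74) on the log2 scale (6.34 to 8.18 over all alternatives). It stood at 0.0593 and 0.215 CPM in GL261 and at 8.93, 15.4, 25.4 and 21.3 CPM in GL261-GSCs, with an edgeR adjusted p of 0.00091. The follistatin-like genes Fstl1 and Fstl3 fell by 2.35 (SE 0.13) and 3.24 (SE 0.44), with edgeR adjusted p values of 0.000101 and 0.0024. Noggin (Nog), a secreted antagonist that binds BMP ligands, gave 0 UMIs in every library.

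All 12 Smads and regulators were tested, of which 1 rose, 6 fell and 5 were not called. Smad7, the inhibitory Smad that acts on both BMP and TGF-beta receptors, fell most. It stood at 131 and 116 CPM in GL261 and at 2.14, 1.70, 2.58 and 2.36 CPM in GL261-GSCs, without overlap. Its log2 fold change was -5.82 (SE 0.19), with an edgeR adjusted p of 2.47e-05. Skil, a repressor of Smad-driven transcription, fell by 1.68 (SE 0.13), with an edgeR adjusted p of 0.000299. Smad1, which carries the BMP signal, rose by 1.60 (SE 0.27), with an edgeR adjusted p of 0.00596. Its libraries stood at 32.6 and 31.3 CPM in GL261 and at 106, 131, 77.5 and 72.8 CPM in GL261-GSCs. Smad9, which carries that signal too, went the other way. Its log2 fold change was -1.57 (SE 0.26), with an edgeR adjusted p of 0.00575. It lay at 2.38 and 2.87 CPM in GL261 and at 0.718 to 1.13 CPM in GL261-GSCs. Smad5 was not called, with a log2 fold change of -0.15 (SE 0.27) and an edgeR adjusted p of 0.696. Smad4, the common partner, fell by 0.62 (SE 0.12), with an edgeR adjusted p of 0.00911. The calls of Smad1 and Smad4 were lost without either GL261 library, and their adjusted p values ranged from 1.89e-07 to 0.0709 and from 5.2e-05 to 0.0964 over all alternatives.

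Of 12 other targets, 8 were tested, 3 rose, 4 fell and Hey1 was not called. Atoh8, a transcription factor gene induced by BMP and ALK1 signalling, fell most. It gave 608 and 575 UMIs in GL261 and 5, 16, 0 and 0 UMIs in GL261-GSCs, a log2 fold change of -6.82 (SE 1.0) with an edgeR adjusted p of 0.00342. Over all alternatives its log2 fold change ran from -8.28 to -5.99. For the 3 E proteins that Id proteins bind, 2 rose and Tcf3 was not called. Tcf12 rose by 1.93 (SE 0.16), with an edgeR adjusted p of 0.000386. Its means were 127 ± 6.28 CPM (SD, n = 2) in GL261 and 482 ± 53.7 CPM (SD, n = 4) in GL261-GSCs. Tcf4 rose by 1.64 (SE 0.38), with an edgeR adjusted p of 0.0188 that reached 0.0997 and 0.152 without GL261 replicates 1 and 2 (8.35e-05 to 0.152 over all alternatives). 

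**Figure D2:**
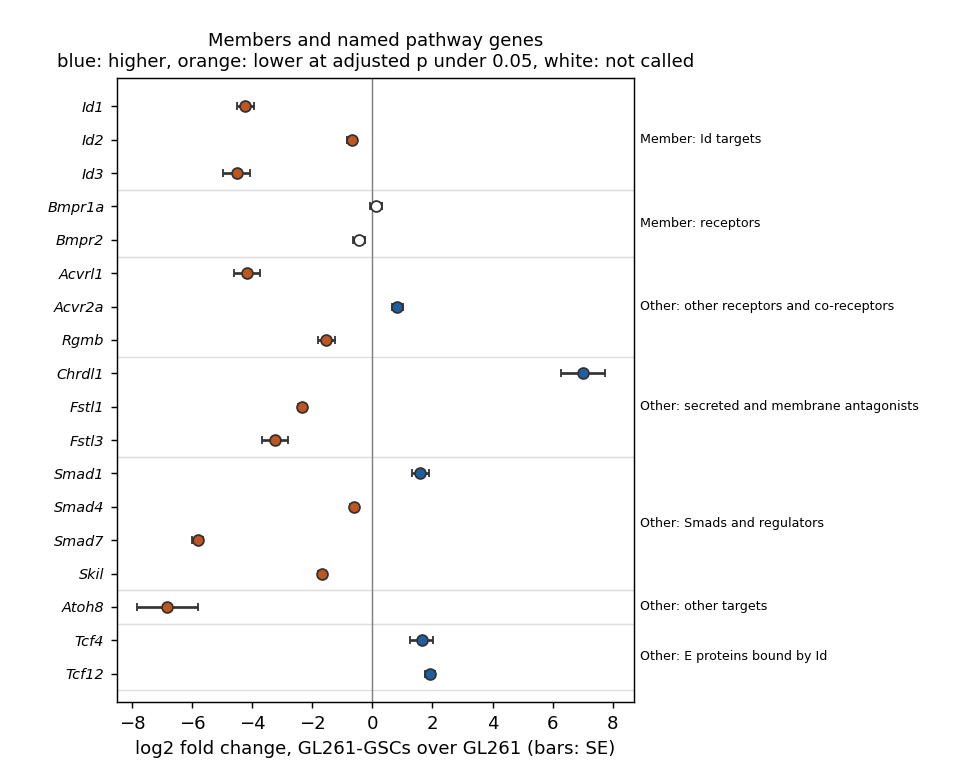
Log2 fold change of GL261-GSCs over GL261 for the tested members and the pathway genes named by the rule given with the processing. Bars are the SE and colours mark calls at an edgeR adjusted p under 0.05. Smad6 and Bmp15 are left out because one group is at 0. Id1, Id3, Acvrl1, Smad7 and Atoh8 lie between -7 and -4, Chrdl1 lies at 7.02, and the 2 open points are the receptors Bmpr1a and Bmpr2.

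The genes whose levels across the 6 libraries were most like each Id gene were sought among 5157 genes by Pearson's r of log2(CPM + 1), given as a description. For Id1 they were Plec, a cytoskeletal linker, and Hbegf, an epidermal growth factor receptor ligand, with r of 0.998 each. Id2 was most like C1d and Frmd8, with r of 0.999 each. Tor1aip2 and the secreted factor gene Angptl2 were nearest to Id3, with r of 0.998 each. The 6 libraries fall in 2 groups. With the members counted as well, each Id gene itself among them, 57, 21 and 42 genes exceeded an r of 0.99 with Id1, Id2 and Id3.

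The falls of Id1 and Id3 were also seen as shares of cells. After each cell was thinned to 2000 UMIs, so that depth was equal, Id3 had a UMI in 66.3% and 65.4% of GL261 cells. In GL261-GSCs replicates 1 to 4 the share was 7.86%, 8.38%, 3.15% and 3.39%. Id1 had a UMI in 39.4% and 37.8% of GL261 cells and in 2.25%, 2.20%, 4.23% and 3.35% of GL261-GSCs cells. The exact (Clopper-Pearson) 95% interval of the first Id1 value ran from 38.0% to 40.8%, and that of the highest GL261-GSCs value from 3.78% to 4.72%. Groups did not overlap for either gene. An exact permutation test over the libraries (2-sided) gave p = 0.133 for each, the smallest that 2 against 4 libraries can give, so the design could not reach 0.05. Intervals cover counting error only.

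Id2 had a UMI in 19.0% and 20.2% of GL261 cells and in 13.5%, 15.9%, 14.7% and 13.2% of GL261-GSCs cells. Id2 was thus detected in more cells of every GL261-GSCs library than Id1 or Id3 were at the same depth. Bmpr1a was found in 10.7% and 10.0% of GL261 cells and in 9.43%, 11.6%, 12.8% and 17.5% of GL261-GSCs cells. For Bmpr2 the shares were 13.2% and 12.4% against 9.55%, 10.5%, 12.7% and 17.2%, and both receptors overlapped between groups. The difference in share (GL261-GSCs minus GL261) was 2.44 percentage points for Bmpr1a and -0.32 for Bmpr2. Without GL261-GSCs replicate 4 it was 0.898 and -1.89, and without replicate 1 it was 3.58, where the groups of Bmpr1a no longer overlapped, and 0.66. Smad6 had a UMI in 6 cells of each GL261 library after thinning (0.125% and 0.120%) and in none of the GL261-GSCs cells, which allows shares of cells with a UMI at this depth of up to 0.0412% to 0.0704%.

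No cell type known to lack these genes was present to give a background, so free RNA was read from barcodes of 100 to under 1000 UMIs, with medians of 472 to 679 UMIs. If every cell carried free RNA of that amount and composition, Id3 would have a UMI from it in 6.28% and 5.82% of thinned GL261 cells and in at most 0.534% of GL261-GSCs cells. For Id1 these shares would be 2.80% and 2.56% in GL261 and at most 0.530% in GL261-GSCs. All measured shares of both genes lay above them. Without thinning, 81.4% and 83.3% of GL261 cells held Id1 and 91.4% and 92.3% held Id3. The unthinned GL261-GSCs shares were 10.8% to 18.0% for Id1 and 7.67% to 25.4% for Id3. The free RNA shares rose too without thinning, to 14.5% and 12.4% for Id1 and 30.3% and 26.5% for Id3 in GL261, and to at most 1.49% and 2.95% in GL261-GSCs.

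**Figure D3:**
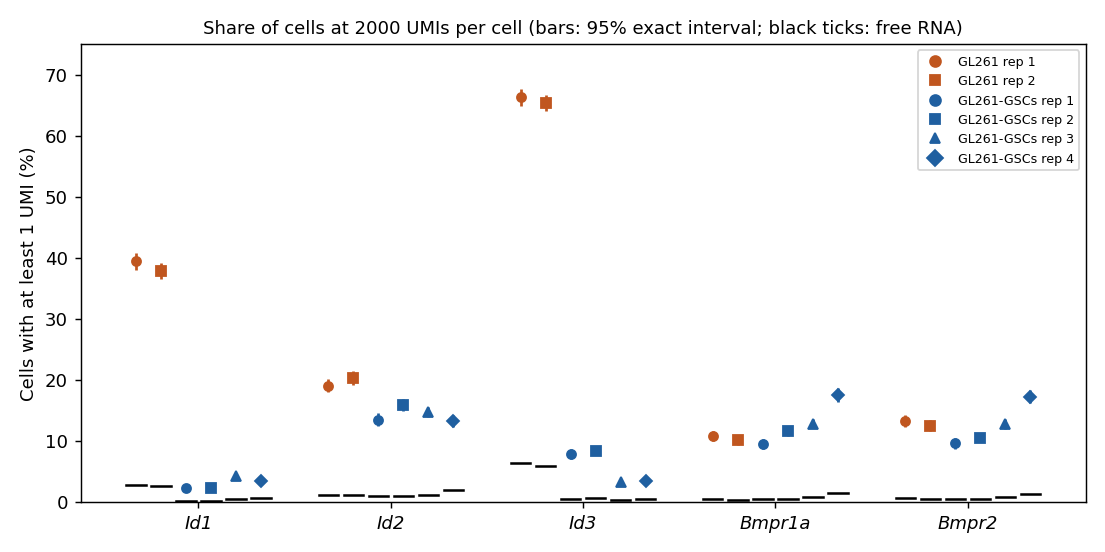
Share of called cells with at least 1 UMI, in percent, after thinning to 2000 UMIs per cell; each point is 1 library with its exact 95% interval, and black ticks give the share that free RNA would make if each cell carried the amount and composition of barcodes of 100 to under 1000 UMIs. Id3 and Id1 stand at 65.4% or above and 37.8% or above in GL261 and at 8.38% or below and 4.23% or below in GL261-GSCs, while the receptors overlap.

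UMIs of Id3 were spread unevenly over cells in both groups. At 2000 UMIs per cell the variance of Id3 UMIs was 2.31 and 2.02 times their mean in GL261 and 1.67 to 2.45 times in GL261-GSCs, where counting error alone gives a ratio near 1. For Id1 the ratio was 1.37 and 1.27 in GL261 and 1.02 to 1.09 in GL261-GSCs. Ratios of both receptors stayed between 0.99 and 1.12. This ratio nears 1 as the mean falls, so it cannot be compared between groups or genes of unlike level. Mean UMIs per thinned cell were 0.58 and 0.54 for Id1 in GL261 and 0.023 to 0.045 in GL261-GSCs. For Id3 they were 1.69 and 1.55 in GL261 and 0.047 to 0.127 in GL261-GSCs. In GL261, Id3 and Id2 were each seen more often in cells that held another Id gene. Id3 was seen in 76.8% and 72.5% of thinned cells with an Id1 UMI and in 59.4% and 61.1% of those without. In GL261-GSCs only 8 to 12 thinned cells per library held both, too few to compare. Id2 was seen in 22.3% and 24.1% of GL261 cells with an Id3 UMI and in 12.6% and 12.8% of those without. In GL261-GSCs these shares were 14.6% to 17.5% of cells with an Id3 UMI and 13.1% to 15.9% of those without. The share was lower with an Id3 UMI in replicate 2 and higher in the other 3, and 23 to 76 cells per library held both. Bmpr2 was seen in 16.9% and 11.8% of thinned GL261 cells with a Bmpr1a UMI and in 12.7% and 12.5% of those without. Pairs of other genes were not examined, so co-detection of the Id genes cannot be set against gene pairs in general.

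Cells in the cycle were marked by a UMI of Mki67, a proliferation gene, found in 31.1% to 39.5% of thinned cells per library. In each library the summed level of a gene in these cells was compared with that in the other cells, and 5 members had enough UMIs. Bmpr2 was higher in Mki67-positive cells in 6 of 6 libraries, by a mean of 0.42 ± 0.06 (SD, n = 6) on the log2 scale. Bmpr1a was higher in 6 of 6, by 0.23 ± 0.07 (SD, n = 6). Id3 was lower in 6 of 6, with a mean of -0.41 ± 0.23 (SD, n = 6) and values from -0.09 in GL261 replicate 1 to -0.74 in GL261-GSCs replicate 3. For each of these 3 genes the exact sign-flip permutation p (2-sided) was 0.0313, the smallest that 6 libraries can give, and 0.0521 after adjustment over the 5 genes. None therefore passed 0.05 after adjustment. The share of all genes that lie on 1 side in 6 of 6 libraries was not determined, so these 3 cannot be set against genes in general. The sizes depended on the marker and the depth, while each of the 3 genes stayed on its side in 6 of 6 libraries. The mean for Bmpr2 was 0.23 with cells thinned to 5000 UMIs and 0.18 with Top2a in place of Mki67. For Bmpr1a these means were 0.19 and 0.15, and for Id3 they were -0.55 and -0.31.

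Id1 and Id2 took no single direction across the libraries. Id1 was higher in Mki67-positive cells in 4 of 6 libraries, with a mean of 0.27 ± 0.37 (SD, n = 6), an exact permutation p of 0.125 and the same adjusted p. Its 2 largest values, 0.88 and 0.58, came from GL261-GSCs replicates 1 and 2 and rest on 45 and 59 UMIs in Mki67-positive cells. Id2 was lower in all 4 GL261-GSCs libraries, from -0.17 to -0.60, and slightly above 0 in both GL261 libraries, at 0.02 and 0.09. Its mean was -0.20 ± 0.25 (SD, n = 6), with an exact permutation p of 0.125.

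**Figure D4:**
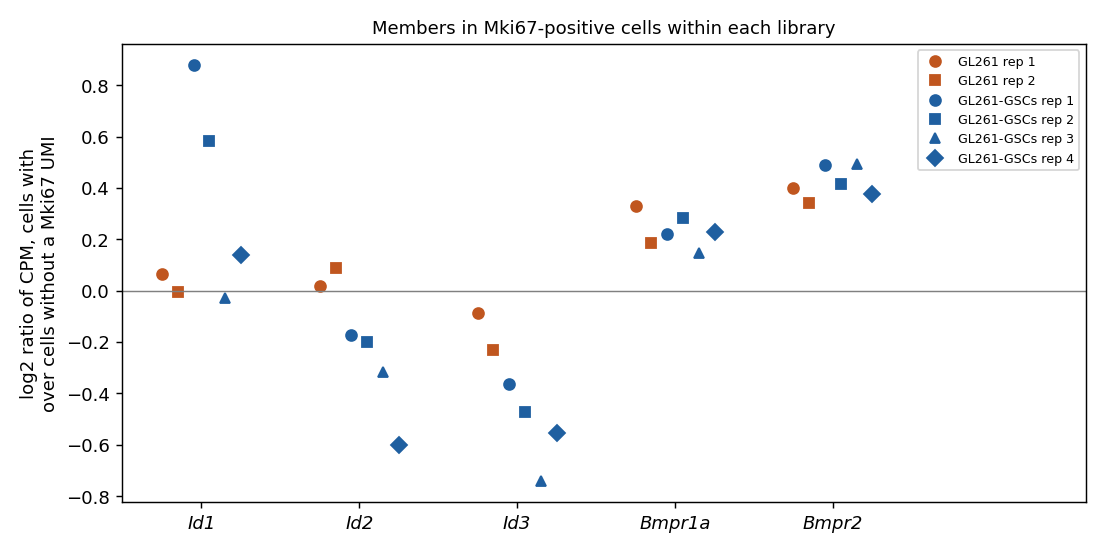
Log2 ratio of CPM in cells with over cells without a Mki67 UMI, for the 5 members with enough UMIs; each point is 1 library. Bmpr1a and Bmpr2 lie above 0 and Id3 below 0 in all 6 libraries, and Id2 is below 0 in the 4 GL261-GSCs libraries and just above it in GL261.

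Within GL261-GSCs, a large share of the Id3 UMIs came from few cells. Cells with at least 5 Id3 UMIs numbered 231, 252, 109 and 38 in replicates 1 to 4, or 5.42%, 4.29%, 1.50% and 0.842% of the called cells. They held 61.0%, 53.5%, 58.2% and 41.0% of all Id3 UMIs, and 1 cell held up to 42. These cells were somewhat deeper than the others, with median UMIs of 17128, 12320, 12309 and 9695 against 15263, 11875, 10625 and 6635. They were chosen by Id3, so their Id3 level is no finding, and the comparisons that follow are within libraries, as descriptions with no test.

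Id1 was higher in the Id3-rich cells of all 4 libraries, at 22.6, 24.7, 37.0 and 30.7 CPM against 11.9, 11.9, 23.6 and 18.5 CPM, here per UMI total of the cells summed. The log2 ratio was 0.84 ± 0.18 (SD, n = 4). With at least 10 Id3 UMIs as the limit, Id1 was higher in 3 of 4 libraries, and the lowest log2 ratio was -0.03. Id2 was not on 1 side, with a mean log2 ratio of -0.13 ± 0.26 (SD, n = 4). Mki67 was lower in the Id3-rich cells of all 4 libraries, by log2 ratios from -0.12 to -2.04, and Olig2 was lower by -0.16 to -0.46. Smad6 gave 0 UMIs in these cells, as in all GL261-GSCs cells.

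Among 9649 genes with at least 3 UMIs on each side in every library, the genes with the highest smallest ratio were taken after the values were seen. Symbols that start with Gm or end in Rik were left out of this ranking. The Id3-rich cells of replicate 4 numbered only 38. A gene of low level thus passes the floor of 3 UMIs mainly where it is high in the Id3-rich cells, which favours such genes in the ranking. Leading the ranking were Tnnt3, encoding a fast skeletal muscle troponin, with log2 ratios of 2.85 to 4.46, and Hes5, encoding a repressor induced by Notch receptors, with 2.76 to 4.20. Nrarp, a feedback regulator of Notch receptors, had ratios of 1.61 to 3.64, and the receptor gene Notch3 had 1.54 to 3.46. Genes known from Notch signalling were then looked at together, as a list of 12. It was drawn up because Hes5, Nrarp and Notch3 stood among the first 10 genes of the ranking, so its count is not independent of that ranking. Of 9 with enough UMIs, 6 were higher in the Id3-rich cells of all 4 libraries (Hes1, Hes5, Nrarp, Dtx1, Notch3 and Dll3) and 2 were lower in all 4 (Notch1 and Dll1). Among all 9649 genes 16.6% were higher in all 4 libraries and 26.2% were lower in all 4. The count of 6 is set in part by the floor of 3 UMIs. In the other cells of replicate 4, Hes1, Nrarp, Notch3, Hes5 and Dtx1 lay at 0.82, 1.37, 3.25, 4.59 and 6.23 CPM. Such low genes pass the floor mainly where they are high in the Id3-rich cells, so 6 of 9 cannot be set against the shares over all genes. Hey1, with 0 UMIs in the Id3-rich cells of replicates 3 and 4, did not pass it. Counts were small: Hes5 gave 5, 22, 76 and 18 UMIs in the Id3-rich cells of replicates 1 to 4, and Hes1 gave 9, 51, 19 and 8. With at least 10 Id3 UMIs as the limit, 3 genes of 5 with enough UMIs were higher in all 4 libraries. Dll1 was above 0 in 1 library with at least 3 Id3 UMIs as the limit, and in 2 libraries when only cells of at least 5000 UMIs were used. Over whole libraries Hes1 fell by 4.17 (SE 0.47) on the log2 scale, with an edgeR adjusted p of 0.00125. Its means were 34.6 ± 1.36 CPM (SD, n = 2) in GL261 and 1.90 ± 1.17 CPM (SD, n = 4) in GL261-GSCs.

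**Figure D5:**
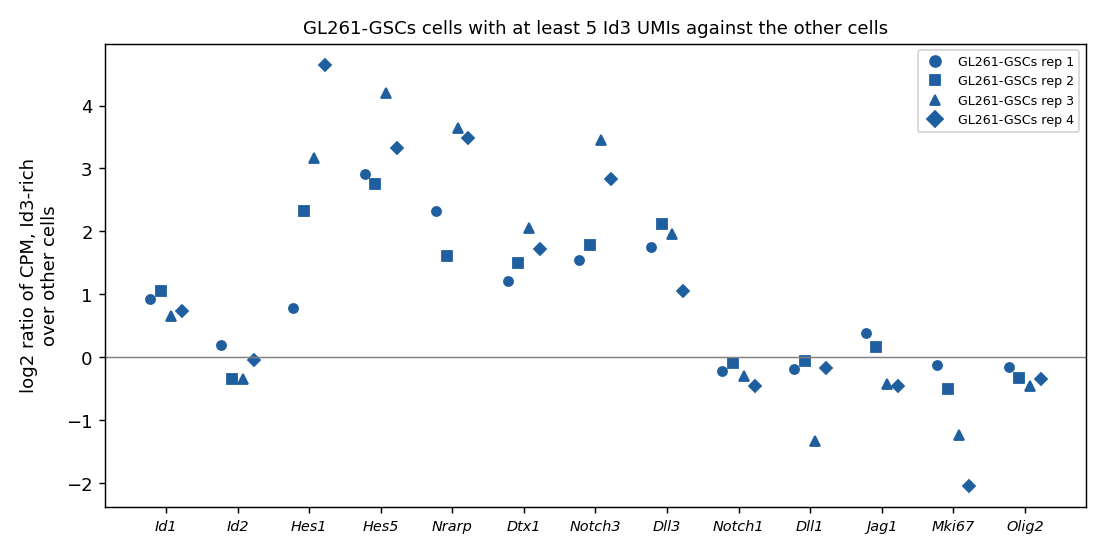
Log2 ratio of CPM in GL261-GSCs cells with at least 5 Id3 UMIs over the other cells of the same library; each point is 1 library. Id1, Hes1, Hes5, Nrarp, Dtx1, Notch3 and Dll3 lie above 0 in all 4 libraries, and Notch1, Dll1, Mki67 and Olig2 lie below 0 in all 4.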

How the data were processed

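The authors deposited, for each of the 6 libraries, a matrix of unnormalized UMI counts in which every barcode is kept. Cell Ranger 4 wrote it, per the file headers. The build was mm10 per the submitters' processing notes, and for the aligner the settings, not given in the sources used here, are unknown. Per the labels' protocols either cells or nuclei were captured.

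Groups and replicate numbers came from the sample titles. Barcodes were called cells if their UMIs reached 10% of the 99th percentile among the 3000 largest barcodes, with at least 500 genes and under 10% mitochondrial UMIs. Doublets were not removed. Of the listed identifiers, 94 repeated a symbol, and the one with the most UMIs was used. Coordinates are from GENCODE (GRCm38), promoter windows from RefSeq (GRCm38.p6).

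UMIs were summed over called cells per library and tested with edgeR 4.0.16 (quasi-likelihood, TMM, filterByExpr, 2-sided, Benjamini-Hochberg over all genes, no block) in R 4.3.3. CPM values of whole libraries use TMM-scaled library sizes, and those within Mki67 and Id3-rich cell groups use the cells' own UMI totals. Log2 fold changes set GL261-GSCs over GL261. Their SE was derived as the size of the change over the root of the test's F. A gene at 0 in a group has a bound against 3 UMIs over that group. For shares, cells were thinned to 2000 UMIs without replacement. The Mki67 ratios used a pseudocount of 1 UMI on each sum, and the ratios of Id3-rich cells used none and at least 3 UMIs on each side. Exact tests used scipy 1.17.1. The scripts were tested on simulated data.

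The members, lists, tests and motifs were chosen with earlier results of these data known. The text names every member, of the pathway lists each called gene whose mean log2 CPM reached 4 and in each list the called gene with the largest change, and for each Id gene the 2 nearest genes whose mean log2 CPM reached 5. Other names, given with counts of 1 or 2, were added after their values were seen, as were Smad5 and Smad9. Alternatives were DESeq2 1.42.0 (test and size factors), limma-voom (limma 3.58.1), library size scaling, no filter, other cell calls, the replicate block, other thinning and leaving out each library.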

Additional observations from a re-analysis of the deposited data

Results flagged for a closer look

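In GL261-GSCs, Smad4 stood at 61.1 CPM in replicate 2, below the other 3 libraries, which lay between 70.0 and 71.8 CPM, by a gap that is large against the range of the group. In all 28 groups of 4 values were checked this way, and chance sets about 1 in 20 such groups apart.

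The Mki67 ratio of Id2 had opposite signs in the cultures. Its mean log2 ratio was 0.05 (0.0529) in GL261, where both libraries lay above 0, and -0.32 (-0.323) in GL261-GSCs, where all 4 lay below 0. The difference between the cultures was not tested. With Top2a in place of Mki67, Id2 was above 0 in 3 libraries and below 0 in 3.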

How the results depend on the processing

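The calls of Id1, Id3 and Smad6 held under every alternative run, though that of Smad6 only narrowly without either GL261 library. The number of members called was 4 under DESeq2, limma-voom and each scaling, filter and cell call, and 3 to 5 when 1 library was left out. Pathway genes called fell from 30 to between 16 and 30 without 1 library, and all genes called ranged from 1817 to 6193, against 5514. The lowest of both came without a GL261 library, which leaves that group with 1 sample assumed to vary like the others. Whether replicate numbers pair the samples could not be decided. Correlations of deviations from the group means were -0.0888 and 0.132 over 2 shared numbers. With only 2 GL261 libraries, their deviations are mirror images of each other, so these values cannot show or exclude pairing. With the replicate block, 5 members, 31 pathway genes and 6512 genes were called, and Bmpr2 fell by 0.73 on the log2 scale with an adjusted p of 0.00838. Differences in the share of cells with a UMI (GL261-GSCs minus GL261, percentage points) scaled with depth. For Id1 the difference was -35.6, and it was -20.8 at 1000 UMIs, -68.7 without thinning and -34.4 over barcodes of at least 2000 UMIs. For Id2 it was -5.31, -3.18 at 1000 UMIs and -13.3 without thinning. For Id3 it was -60.2, -44.5 and -75.5 in the same order. For Smad6 it was -0.122, -0.0404, -0.764 and, over barcodes of at least 2000 UMIs, -0.115. The receptors, at 2.44 (Bmpr1a) and -0.32 (Bmpr2), were at -2.07 and -13.6 without thinning, and ran from 0.898 to 3.58 and from -1.89 to 0.66 without 1 library; the cause was not tested. The log2 fold change of Bmpr1a was -0.15 with the replicate block. All 45 alternative Mki67 ratios, as means over the libraries, kept their direction, and none passed 0.05 after adjustment. No log2 fold change between the groups changed sign for a called member or a called pathway gene named by the rule above. Depth limits Bmp4, Bmp7, Id4 and Bmpr1b, which cannot be called absent.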

Other observations

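Other genes high in the ranking of the Id3-rich cells of GL261-GSCs, under the same floor of 3 UMIs, were Tnni2, H19, Il11, Ramp1, Gdpd2 and Radil. These 6 genes were named after their values were seen and with no test. Their lowest log2 ratios over the 4 libraries were 2.64, 2.07, 2.28, 1.79, 1.69 and 1.46. Tnni2 encodes a fast skeletal muscle troponin like Tnnt3, and H19 is an imprinted noncoding RNA. Tnni2, Tnnt3 and H19 are neighbours on chromosome 7, with Tnni2 at 142441808 to 142444410, Tnnt3 at 142498836 to 142516009 and H19 at 142575529 to 142578143 (GRCm38). In the Id3-rich cells Tnni2, Tnnt3 and H19 gave 118, 260 and 325 UMIs over the 4 libraries. Bmpr2 was lower in these cells in 3 of the 4 libraries, at 36.4, 46.6, 42.0 and 35.8 CPM against 43.3, 45.8, 55.6 and 75.7 CPM, the last on 14 UMIs.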
